A study of Mus musculus with 3 samples.

Results

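10 genes of prostaglandin synthesis, transport, breakdown, and reception were followed across the cell types of the mouse lung at P14. They were taken by gene symbol, *Ptgs1*, *Ptgs2*, *Ptgis*, *Ptges*, *Ptgds*, *Tbxas1*, *Slco2a1*, *Hpgd*, *Ptger2*, and *Ptger4*, and are 10 of the 28692 genes counted. scRNA-Seq libraries came from the whole lungs of 3 wild-type C57BL/6 mice, numbered mice 2, 3, and 4, that breathed room air (RA) from P1 to P14 and received no other treatment that the labels name. There was 1 condition, so cell types were compared with each other, with the mice as replicates. The assay tags each captured transcript near its 3′ end with a unique molecular identifier (UMI), so that amplified copies of 1 molecule are counted once.

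Prostanoids are short-lived lipid signals made from arachidonic acid. The cyclooxygenases turn it into an unstable intermediate, and a terminal synthase in the same or a neighboring cell then sets which product is made, such as prostacyclin, prostaglandin E, prostaglandin D, or thromboxane. The signal is ended by uptake into cells through a transporter and oxidation inside them, for which the lung is known as a main site. Receptors on the cell surface read the products that escape this.

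Of the 9644 droplets listed as cells, 7642 were kept, those that had 200 genes or more and no more than 20% of UMIs from mitochondrial genes (2386, 2601, and 2655 in mice 2, 3, and 4), with a median of 6033.5 UMIs per cell. The libraries shared 5, 2, and 5 cell barcodes pairwise. The cells formed 30 clusters, of which 24 were named from marker genes, and the other 6 are called by 2 leading genes. The 10 genes, and the 26 genes of the wider list below, were left out of the clustering and of these labels. By class there were 960 endothelial cells (ECs), 1305 epithelial cells, 1497 stromal cells, and 3023 immune cells. The venous-like EC cluster also had lymphatic genes among its leading genes, and the *Col14a1*-type fibroblast cluster also had cartilage genes. Leading genes of the arterial-like EC cluster included *Vwf* from the venous marker list and *Lyve1* from the lymphatic one. Club-like cells had a median of only 753 UMIs, with 67 of the 97 cells in mouse 4. The median was 51167, 31853, and 595 UMIs in mice 2, 3, and 4. Levels are given as counts-per-million of all UMIs of the cells of a type in a mouse (CPM), only for mice with at least 10 cells of the type, and are set side by side between types and not between genes. The exact binomial limit and the floors of 3 counts below cover counting error only.

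The 250 bases upstream of the RefSeq start are shown for the 2 cyclooxygenase genes, which were high in different cells, and for *Hpgd* and *Slco2a1*, which were high in the same ECs. RefSeq promoters (GRCm38.p6) were found for 9 of the 10 genes. Sequences run 5′ to 3′ on the strand of the gene and end at the base before its start. Capitals mark matches on either strand to the strings TATAAA (the TATA box), CACGTG (an E-box), TTGCGCAA (the C/EBP palindrome), GGGCGG (a GC box), or TGACGTCA (the cyclic AMP response element).
Ptgs1, plus strand, chr2:36230176-36230425: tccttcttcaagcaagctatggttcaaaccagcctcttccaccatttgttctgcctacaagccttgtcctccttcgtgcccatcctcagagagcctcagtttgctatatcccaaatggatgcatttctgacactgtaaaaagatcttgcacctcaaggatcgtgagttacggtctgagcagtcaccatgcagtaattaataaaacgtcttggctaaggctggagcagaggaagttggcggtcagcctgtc
Ptgs2, plus strand, chr1:150099781-150100030: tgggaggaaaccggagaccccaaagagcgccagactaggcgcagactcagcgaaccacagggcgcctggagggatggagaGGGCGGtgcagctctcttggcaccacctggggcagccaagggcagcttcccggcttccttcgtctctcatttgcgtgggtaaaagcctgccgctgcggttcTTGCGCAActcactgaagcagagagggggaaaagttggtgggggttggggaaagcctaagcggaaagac
Hpgd, plus strand, chr8:56294302-56294551: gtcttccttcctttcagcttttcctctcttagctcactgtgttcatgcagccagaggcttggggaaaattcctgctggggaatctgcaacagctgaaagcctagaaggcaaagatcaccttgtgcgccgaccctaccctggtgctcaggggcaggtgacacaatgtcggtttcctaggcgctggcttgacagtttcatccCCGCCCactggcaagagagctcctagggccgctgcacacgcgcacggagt
Slco2a1, plus strand, chr9:103008237-103008486: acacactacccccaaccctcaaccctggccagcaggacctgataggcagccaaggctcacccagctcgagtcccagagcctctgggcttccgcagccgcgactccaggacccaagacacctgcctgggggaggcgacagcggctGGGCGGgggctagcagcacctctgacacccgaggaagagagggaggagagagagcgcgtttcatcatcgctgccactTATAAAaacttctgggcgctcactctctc
The *Ptgs2* promoter held the C/EBP palindrome 69 to 62 bases before the start, a string found in 0.164% of the 32851 mouse promoters searched over the same length, and a GC box 170 to 165 bases before it. The *Ptgs1* promoter held none of the 5 strings. *Hpgd* had a GC box on the opposite strand 50 to 45 bases before its start, and *Slco2a1* had a GC box 106 to 101 bases and a TATA box 29 to 24 bases before its start. A GC box on either strand was in 32.7% of all promoters and the TATA box in 12.4%. These matches describe letters only.

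**Figure D1:**
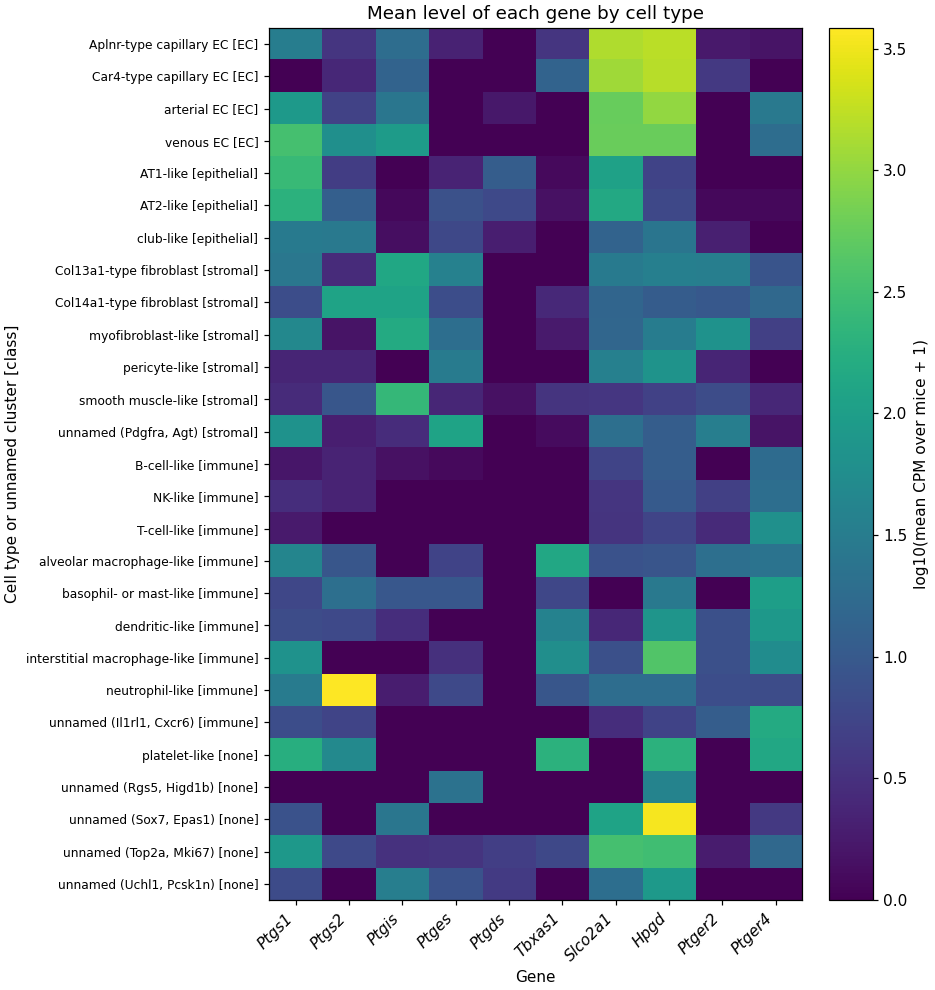
Mean level of the 10 genes (columns) in 27 cell types or unnamed clusters (rows, class in brackets), as log10 of mean CPM over mice + 1. *Ptgs2* was brightest in neutrophil-like cells (3848 CPM), *Slco2a1* in *Aplnr*-type capillary ECs (1435 CPM), and *Hpgd* in ECs and the unnamed *Sox7*, *Epas1* cluster (3406 CPM).

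The 2 cyclooxygenase genes were high in different cells. *Ptgs1* (chromosome 2, 36230426 to 36252272, GRCm38), the constitutive cyclooxygenase, was highest in venous-like ECs and in both alveolar epithelial types. In venous-like ECs it was at 340, 322, and 334 CPM in mice 2, 3, and 4 (332 ± 9.19, mean ± SD, n = 3). AT1-like cells, the flat cells of gas exchange, had 246, 256, and 270 CPM (257 ± 12.04, SD, n = 3). AT2-like cells, which make surfactant, had 189, 215, and 199 CPM (201 ± 12.9, SD, n = 3). The 3 types did not overlap with each other in any mouse. AT2-like cells, being numerous, held 59.2% ± 1.48 of all *Ptgs1* UMIs of a mouse (SD, n = 3), with 25.6% ± 4.45 of all UMIs.

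Among ECs, *Ptgs1* was lower in arterial-like than in venous-like cells and lower again in the capillary types. Arterial-like ECs had 68.2, 81.4, and 99.5 CPM, below every venous-like value. *Aplnr*-type capillary ECs, described as the general capillary cell, had 22.1, 37.8, and 36.4 CPM. *Car4*-type capillary ECs, the other capillary type, had no *Ptgs1* UMI in 134 cells, against 203 UMIs in the 566 *Aplnr*-type cells. In these clusters the mean of the *Aplnr*-type cells was 6.52 times a floor of 3 counts over the *Car4*-type group. *Ptgs1* was called higher in the *Aplnr*-type cells (adjusted p = 6.79e-05, edgeR over 12350 genes) and was higher in 3 of 3 mice. *Ptgs1* was the 1 gene called of 9 tested in that pair, where 13.4% of all genes tested were called in either direction. *Car4*-type cells had a lower median depth, 2470.5 UMIs against 7934. The absence of *Ptgs1* from them depended on where the cluster was drawn: the log2 fold change was 1.44 with stricter filters on cells, 1.61 with none, 1.54 with doublets removed, 1.24 with log-normalization, 1.32 at resolution 1.2, and 1.26 with the 10 genes among those used to cluster, with adjusted p of 0.00382 to 0.0347 (edgeR). The unnamed stromal cluster led by *Pdgfra* and *Agt* had 79.4, 58.7, and 63.8 CPM of *Ptgs1*, and smooth muscle-like cells had 7 UMIs in 290 cells.

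A UMI of *Ptgs1* was found in 89.3% of AT2-like cells, 85.0% of venous-like ECs, and 66.9% of AT1-like cells. In B-cell-like cells, taken as cells without the gene, the share was 0.224% (median 3960 UMIs, against 16193.5, 8781, and 13461.5). When each cell was thinned to 1000 UMIs the shares were 18.1%, 30.2%, and 21.6%, in the order of the CPM values.

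*Ptgs2* (chromosome 1, 150100031 to 150108227), the inducible cyclooxygenase, was highest in neutrophil-like cells by a wide margin. Neutrophil-like cells had 3965, 3885, and 3695 CPM (3848 ± 139, SD, n = 3), and the next value of any type in any mouse was 358 CPM. They held 86.6% ± 1.58 of the *Ptgs2* UMIs of a mouse with 1.73% ± 0.752 of all UMIs. A UMI was found in 82.2% of the 467 cells at a median of 2133 UMIs per cell and in 76.8% ± 2.31 after thinning to 1000 UMIs, against 0.673% of B-cell-like cells at a median of 3960 UMIs. Cells with *Ptgs2* had a median of 8 UMIs of it and up to 61.

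Immediate early genes, which are also known to be induced while tissue is dissociated, stood high in the same cells. The summed level of *Fos*, *Fosb*, *Jun*, *Junb*, *Egr1*, *Ier2*, *Atf3*, and *Dusp1* was 17209 to 20120 CPM over the mice in neutrophil-like cells, with 8 of 8 genes detected. In *Col14a1*-type fibroblasts it was 1690 to 4898 CPM and in venous-like ECs 2007 to 3195 CPM. Their part in the *Ptgs2* level was not tested.

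Outside neutrophil-like cells, *Ptgs2* was lower, and in some types it rested mostly on 1 cell. The *Col14a1*-type fibroblasts had 0, 358, and 0 CPM, and 215 of their 228 UMIs were in 1 cell of mouse 3 that had no neutrophil marker UMI. In smooth muscle-like cells, 31 of 34 UMIs were in 1 cell of mouse 4, also without a neutrophil marker UMI. Venous-like ECs had a broader signal, in 27.1% of 107 cells, at 21.9, 105, and 55.7 CPM. AT2-like cells had 18.1, 6.33, and 9.50 CPM, from 204 UMIs in 91 of 1042 cells. Their 3 cells with 10 or more held 45 of these UMIs and also 102 neutrophil marker UMIs. Club-like cells had 18.2 to 32.1 CPM over the mice, from 66 UMIs in 19 of 97 cells. Their 3 cells with 10 or more held 39 of these UMIs and also 24 neutrophil marker UMIs. Interstitial macrophage-like cells had no *Ptgs2* UMI in 113 cells. The mean of neutrophil-like cells was 464 times a floor of 3 counts over the interstitial macrophage-like group. *Ptgs2* was called higher in neutrophil-like cells (adjusted p = 5.22e-12, edgeR) and was higher in 3 of 3 mice.

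**Figure D2:**
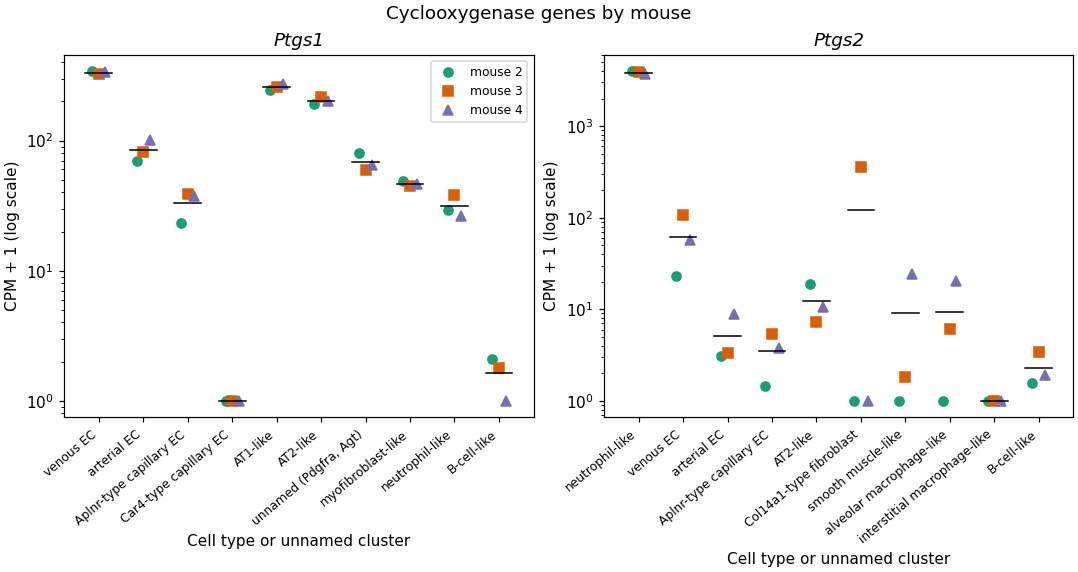
CPM + 1 on a log scale for *Ptgs1* (left) and *Ptgs2* (right), with a point for each mouse and a bar at the mean. *Ptgs1* sat above 180 CPM in venous-like ECs, AT1-like, and AT2-like cells of all mice and at 0 in *Car4*-type ECs. *Ptgs2* sat between 3695 and 3965 CPM in neutrophil-like cells, and the lone *Col14a1*-type point is mouse 3.

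The terminal synthases divided the stroma. *Ptgis* (chromosome 2, 167191805 to 167240604), prostacyclin synthase, was highest in smooth muscle-like cells at 221, 267, and 244 CPM (244 ± 23.3, SD, n = 3). Myofibroblast-like cells, the contractile cells of the growing septa, had 200, 110, and 149 CPM. *Col13a1*-type fibroblasts had 140, 176, and 93.0 CPM and *Col14a1*-type fibroblasts 104, 149, and 107 CPM. Smooth muscle-like cells were above all other types in every mouse, and the 3 types after them overlapped. Venous-like ECs, with 96.4, 92.8, and 83.5 CPM, were the other site, while *Aplnr*-type capillary ECs had 12.98, 23.3, and 17.4 CPM and pericyte-like cells had 0 in all mice. A UMI was found in 43.4% of smooth muscle-like cells (median 10971.5 UMIs) and in 0.168% of B-cell-like cells (median 3960 UMIs). The share was larger in both fibroblast types, with 62 of 100 *Col14a1*-type cells (median 13794 UMIs) and 118 of 210 *Col13a1*-type cells (median 9700.5 UMIs). In myofibroblast-like cells it was 175 of 449 (median 9916 UMIs). Smooth muscle-like cells thus led in CPM and not in the share of cells. Stromal cells together held 88.4% ± 1.88 of *Ptgis* UMIs and ECs 10.2% ± 1.84.

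*Ptges* (chromosome 2, 30889471 to 30929863), the inducible microsomal prostaglandin E synthase, was highest in the stromal cluster with the least *Ptgis* of the fibroblast-type clusters. The unnamed *Pdgfra*, *Agt* cluster had 143, 103, and 115 CPM of *Ptges* (120 ± 20.6, SD, n = 3) and 500 of the 869 *Ptges* UMIs of all kept cells. In the same 357 cells *Ptgis* was at 1.87 ± 0.926 CPM (SD, n = 3). *Col13a1*-type fibroblasts had *Ptges* at 40.7, 35.6, and 35.2 CPM, pericyte-like cells at 51.1, 27.3, and 12.4 CPM, and myofibroblast-like cells at 26.9, 17.8, and 12.2 CPM. *Col13a1*-type fibroblasts were above myofibroblast-like cells in every mouse, and pericyte-like cells overlapped with both. The *Pdgfra*, *Agt* cluster stood above them in every mouse. A *Ptges* UMI was in 56.0% of its cells (median 11679 UMIs) and in 0.112% of B-cell-like cells (median 3960 UMIs), and in 10.6% ± 2.08 of its cells after thinning to 1000 UMIs. In that cluster 98 of 357 cells had UMIs of both *Ptgs1* and *Ptges*.

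In AT2-like cells *Ptges* was lower, at 4.05, 7.27, and 9.19 CPM, and in AT1-like cells it was near the floor, with 3 UMIs in 166 cells. The log2 fold change of AT2-like over AT1-like cells was 2.87 (SE 0.73, adjusted p = 0.00168, edgeR). It was 2.22 without mouse 4 (adjusted p = 0.0887). *Ptges* was the 1 gene called of 9 in this pair, in which 34.4% of all genes tested were called. *Slco2a1* was at 0.75 (SE 0.34, adjusted p = 0.0847, edgeR), and *Ptgs1* at 0.04 (SE 0.15, adjusted p = 0.89, edgeR). Without TMM scaling *Ptgs1* was lower in AT2-like cells, as in the CPM values, at -0.36 (adjusted p = 0.0404).

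Between *Col13a1*-type fibroblasts and myofibroblast-like cells, *Ptgs1* (log2 fold change -0.82, SE 0.27, adjusted p = 0.0177, edgeR) and *Ptger2* (-1.04, SE 0.31, adjusted p = 0.00912, edgeR) were lower in the fibroblasts, 2 genes of 9 tested, with 28.6% of all genes called. The *Ptgs1* call was lost without mouse 2 (adjusted p = 0.0949) and without mouse 4 (0.259), and the *Ptger2* call without mouse 2 (0.0956), mouse 3 (0.0722), or mouse 4 (0.0513). *Ptgis* (-0.19, SE 0.21, adjusted p = 0.551, edgeR) and *Ptges* (0.93, SE 0.38, adjusted p = 0.0604, edgeR) did not pass the test. Both turned to the opposite sign, past the threshold, when clusters were drawn at resolution 0.4. *Ptges* passed the test with a positive sign, at 0.98 to 1.34, under 5 other alternatives (adjusted p = 0.0194 to 0.0439, edgeR).

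*Ptgds* (chromosome 2, 25466709 to 25470046), the lipocalin-type prostaglandin D synthase, was rare and alveolar. AT1-like cells had 7.52, 14.0, and 9.86 CPM and AT2-like cells 5.45, 3.99, and 6.08 CPM. All values of AT1-like cells were above those of AT2-like cells. Epithelial cells held 121 of the 133 *Ptgds* UMIs, ECs 1, stromal cells 2, and immune cells 0. A UMI was in 7.58% of AT2-like cells (median 16193.5 UMIs) and in 0 of 1783 B-cell-like cells (median 3960 UMIs). The exact binomial upper limit (95%) of the share in B-cell-like cells is 0.207%.

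*Tbxas1* (chromosome 6, 38875404 to 39084585), thromboxane synthase, had its highest mean CPM in platelet-like droplets, where it rested on few UMIs, as described below. Macrophage-like and dendritic-like cells came next. Alveolar macrophage-like cells had 188, 81.9, and 144 CPM (138 ± 53.5, SD, n = 3), in 45.1% of 71 cells. Interstitial macrophage-like cells had 39.4, 84.4, and 52.1 CPM and dendritic-like cells 46.2, 29.4, and 39.8 CPM. The first 2 types overlapped between mice, and so did the last 2. AT2-like cells, taken as cells without the gene, had a UMI in 0.576% at a median of 16193.5 UMIs, against a median of 4908 in alveolar macrophage-like cells. In neutrophil-like cells there were 8.08, 13.1, and 2.81 CPM, and interstitial macrophage-like cells were higher by a log2 fold change of 1.96 (SE 0.69, adjusted p = 0.0318, edgeR). That call was lost without mouse 2 (adjusted p = 0.091), mouse 3 (0.103), or mouse 4 (0.311), with doublets removed (0.0664), and at resolution 1.2 (0.0723).

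Platelets are the known source of thromboxane, and platelet-like droplets had 300 and 95.4 CPM of *Tbxas1* in mice 2 and 3, the mice with at least 10 of them. The value of mouse 3 came from 1 *Tbxas1* UMI in a sum of 10481 UMIs. The droplets were few, 31 in all at a median of 711 UMIs. Of their 26 *Tbxas1* UMIs, 18 were in 1 droplet of mouse 2 with 56958 UMIs, out of 63396 UMIs in the sum of that mouse. The same holds for *Ptgs1*, with 22 of 26 UMIs in 1 droplet of that size, and for *Ptger4*, with 18 of 18. *Car4*-type capillary ECs had 12.4, 13.4, and 13.4 CPM of *Tbxas1* from 8 UMIs, against 3.89, 2.52, and 1.19 CPM in *Aplnr*-type cells (log2 fold change of *Aplnr*-type over *Car4*-type cells -2.18, SE 0.84, adjusted p = 0.0809, edgeR). An annotated gene, Gm42962, overlaps exons of *Tbxas1* on the opposite strand, and whether strand was used in counting is not given in the sources used here.

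**Figure D3:**
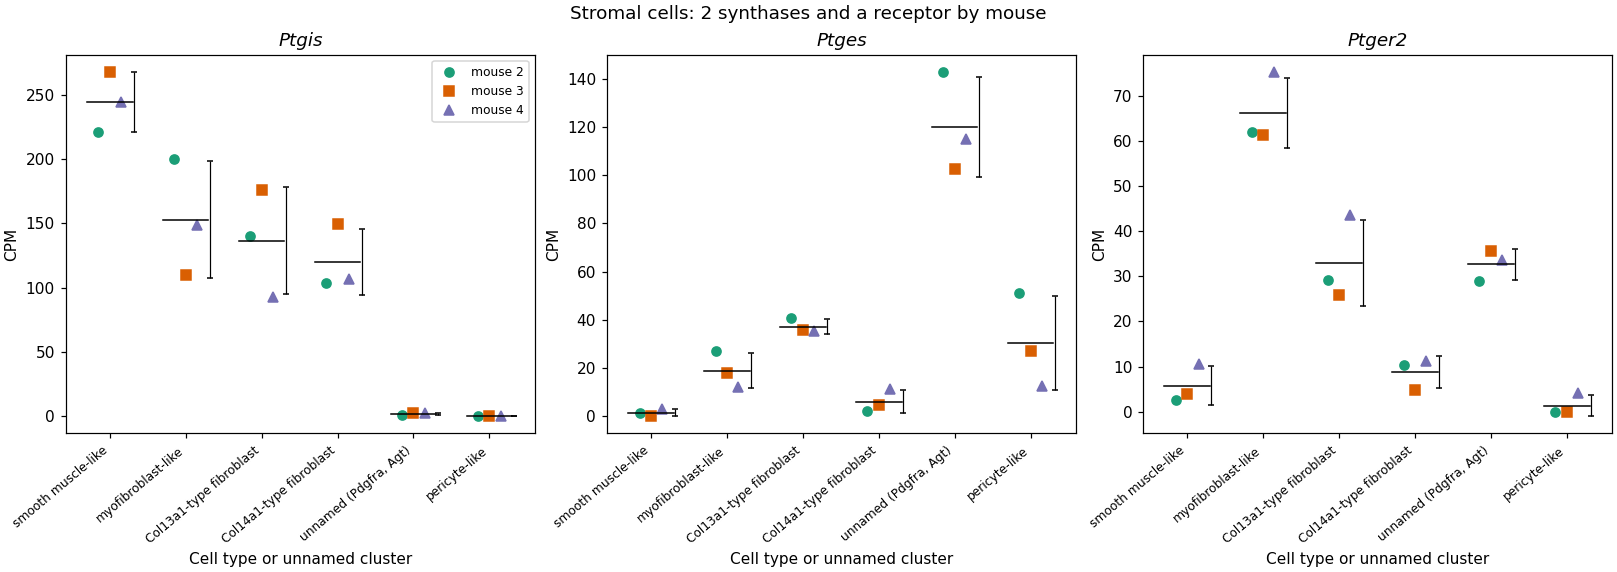
CPM of *Ptgis*, *Ptges*, and *Ptger2* in the 6 stromal types, with a point for each mouse, a bar at the mean, and an error bar of 1 SD. The *Pdgfra*, *Agt* cluster was highest in *Ptges* (120 CPM) and near 0 in *Ptgis*, and myofibroblast-like cells were highest in *Ptger2* (66.2 CPM).

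Of the classes, ECs had the highest RNA levels of the transporter and of the breakdown enzyme. *Slco2a1* (chromosome 9, 102988712 to 103096002), the prostaglandin transporter, had 1505, 1352, and 1447 CPM in *Aplnr*-type capillary ECs (1435 ± 77.0, SD, n = 3). *Car4*-type capillary ECs had 982, 1592, and 985 CPM. Venous-like ECs had 811, 659, and 296 CPM and arterial-like ECs 515, 595, and 575 CPM. The capillary types overlapped with each other, as did the larger vessels, and both capillary types were above both vessel types in every mouse. ECs held 75.1% ± 1.01 of all *Slco2a1* UMIs.

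*Hpgd* (chromosome 8, 56294585 to 56321043), the dehydrogenase that inactivates prostaglandins once they are inside the cell, was high in the same ECs. *Aplnr*-type capillary ECs had 1717, 1541, and 1639 CPM (1632 ± 88.4, SD, n = 3) and *Car4*-type cells 1692, 1847, and 1235 CPM. Arterial-like ECs had 1062, 1088, and 833 CPM and venous-like ECs 798, 662, and 306 CPM. The capillary types overlapped, and each later type in this order lay below the one before. Of 566 *Aplnr*-type cells, 519 had UMIs of both genes, 13 of *Hpgd* alone, 17 of *Slco2a1* alone, and 17 of neither. Neither gene differed past the threshold between the capillary types (log2 fold change of *Hpgd* 0.17, SE 0.29, adjusted p = 0.825, and of *Slco2a1* 0.40, SE 0.31, adjusted p = 0.509, edgeR).

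The 2 genes did not go together everywhere. Alveolar epithelial cells had *Slco2a1* with little *Hpgd*. AT2-like cells had *Slco2a1* at 137, 137, and 154 CPM, in 86.0% of 1042 cells, with *Hpgd* at 5.04 ± 3.16 CPM (SD, n = 3). AT1-like cells had *Slco2a1* at 124, 102, and 109 CPM with *Hpgd* at 4.30 ± 7.44 CPM. Of the 2456 *Slco2a1* UMIs of AT2-like cells, 1704 were in the 762 cells with no UMI of the 6 EC markers. The share of B-cell-like cells with a *Slco2a1* UMI was 1.01% (median 3960 UMIs, against 16193.5 in AT2-like cells), and after thinning to 1000 UMIs it was 0.305%, against 13.4% ± 0.696 in AT2-like cells.

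Interstitial macrophage-like cells had *Hpgd* without *Slco2a1*. They were at 375, 432, and 430 CPM of *Hpgd*, in 50.4% of 113 cells, and had 2 *Slco2a1* UMIs. Of their 150 *Hpgd* UMIs, 130 were in the 95 cells with no EC marker UMI, and their summed EC markers (5 of 6 detected) were at 39.4 to 93.8 CPM, against 9229 to 9786 CPM in *Aplnr*-type ECs. Dendritic-like cells had *Hpgd* at 74.3, 46.5, and 102 CPM, with 95 of 113 UMIs in cells with no EC marker UMI, and 2 *Slco2a1* UMIs. Platelet-like droplets had 12 *Hpgd* UMIs and 1 of *Slco2a1*, but only 3 of the 12 were in droplets with no EC marker UMI. Their summed EC markers were at 1145 to 1499 CPM. Neutrophil-like cells had 19 *Hpgd* UMIs in 467 cells, and the log2 fold change of interstitial macrophage-like over neutrophil-like cells was 3.83 (SE 0.55, adjusted p = 1.09e-07, edgeR; higher in 3 of 3 mice). *Hpgd*, *Tbxas1*, and *Ptgs2* were the 3 genes called of 9 in this pair, in which 26.2% of all genes were called. B-cell-like cells had a *Hpgd* UMI in 2.80%, at 10.6 ± 6.01 CPM.

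The highest *Hpgd* level of all was in the unnamed *Sox7*, *Epas1* cluster, at 3618, 3182, and 3419 CPM (3406 ± 219, SD, n = 3), with *Slco2a1* at 133, 88.6, and 130 CPM. Both lie outside the range of the 4 EC types, *Hpgd* above and *Slco2a1* below, in every mouse. *Hpgd* itself was first among the leading genes of this cluster, ahead of *Sox7* and *Epas1*, and was left out of the label. These 454 droplets had a median of 843.5 UMIs and 0.551% mitochondrial UMIs, against 7934 UMIs and 7.05% in *Aplnr*-type ECs. Their 6 EC markers summed to 1980 to 2517 CPM, against 5882 to 13738 CPM in the EC types. The part of depth and of RNA outside the mitochondria in this pattern was not tested.

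**Figure D4:**
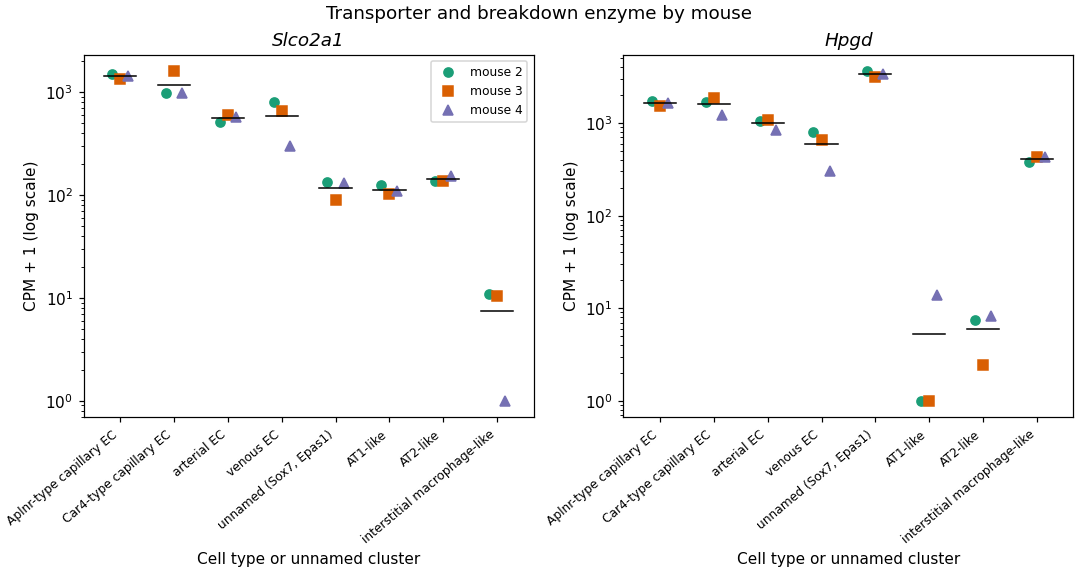
CPM + 1 on a log scale for *Slco2a1* (left) and *Hpgd* (right), with a point for each mouse and a bar at the mean. Both genes were high in the 4 EC types, *Slco2a1* alone stood above 100 CPM in AT1-like and AT2-like cells, and *Hpgd* alone stood above 300 CPM in interstitial macrophage-like cells.

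The 2 receptors of prostaglandin E in the list, both coupled to a rise in cyclic AMP, were highest in different classes. These were stromal cells for *Ptger2* and immune cells for *Ptger4*. *Ptger2* (chromosome 14, 44988195 to 45003820) was highest in myofibroblast-like cells at 62.0, 61.3, and 75.3 CPM (66.2 ± 7.84, SD, n = 3), in 44.1% of 449 cells. *Col13a1*-type fibroblasts had 29.3, 25.9, and 43.7 CPM and the *Pdgfra*, *Agt* cluster 28.9, 35.6, and 33.6 CPM. Myofibroblast-like cells were above these in every mouse, and the other two overlapped. Smooth muscle-like cells had 5.77 ± 4.25 CPM (SD, n = 3), and ECs had 7 *Ptger2* UMIs in 960 cells. Among immune types, alveolar macrophage-like cells had the most *Ptger2*, 7.85 to 39.2 CPM over the mice, from 8 of 71 cells. That range overlapped with *Col13a1*-type fibroblasts and the *Pdgfra*, *Agt* cluster. AT2-like cells, taken as cells without the gene, had a UMI in 0.384% at a median of 16193.5 UMIs, against 9916 in myofibroblast-like cells. The *Ptger2* exons overlap those of Gm17173 on the opposite strand.

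*Ptger4* (chromosome 15, 5206661 to 5244187) was spread over immune cells. The unnamed immune cluster led by *Il1rl1* and *Cxcr6* had 191, 113, and 156 CPM (153 ± 38.8, SD, n = 3), in 57.6% of 66 cells. Basophil- or mast-like cells had 154 and 49.6 CPM in mice 3 and 4. Dendritic-like cells had 72.3, 127, and 44.2 CPM, T-cell-like cells 44.7, 64.6, and 78.9 CPM, and interstitial macrophage-like cells 29.6, 56.3, and 78.1 CPM. Neighbors in this order overlapped throughout. B-cell-like cells, the most numerous type, held 19.3% ± 4.06 of *Ptger4* UMIs, the largest share with that of dendritic-like cells (19.2% ± 5.88), at a low level per cell. In neutrophil-like cells there were 7 *Ptger4* UMIs, and interstitial macrophage-like cells were at a log2 fold change of 2.44 over them (SE 0.96, adjusted p = 0.0535, edgeR), or 2.56 with the mouse as a block (adjusted p = 0.0242). AT2-like cells had a *Ptger4* UMI in 0.288% at a median of 16193.5 UMIs, against 6611 in the *Il1rl1*, *Cxcr6* cluster. Outside immune cells, a *Ptger4* UMI was also in 15 of 100 *Col14a1*-type fibroblasts and 11 of 153 arterial-like ECs. The exons of *Ptger4* overlap those of *Ttc33* on the opposite strand.

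**Figure D5:**
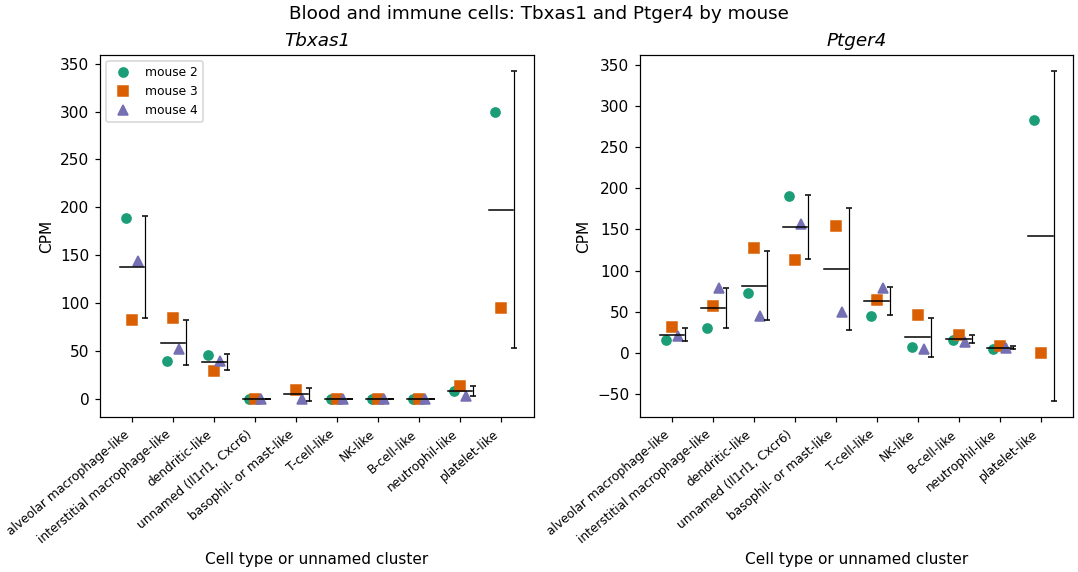
CPM of *Tbxas1* (left) and *Ptger4* (right) in blood and immune cells, with a point for each mouse with at least 10 cells, a bar at the mean, and an error bar of 1 SD. *Tbxas1* lay at 81.9 to 188 CPM in alveolar macrophage-like cells and *Ptger4* at 113 to 191 CPM in the *Il1rl1*, *Cxcr6* cluster, and platelet-like droplets ranged widely in both.

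Over the 4 classes, each gene was compared with the other 3 classes on counts summed per mouse and class (edgeR, 14211 genes). The contrast was against the mean of the log2 levels of the other classes. A class can thus be called higher and still lie below another class, or called lower and lie above another. In ECs, *Hpgd* (log2 fold change 6.16, SE 0.16, adjusted p = 1.11e-13), *Slco2a1* (5.54, SE 0.12, 2.13e-14), *Ptgis* (3.17, SE 0.23, 1.36e-08), and *Ptgs1* (0.77, SE 0.07, 1.87e-07) were higher, 4 of 10 genes, with 29.7% of all genes tested called higher. *Ptgs2*, *Ptges*, and *Ptger2* were lower in ECs, with 30.1% of all genes tested called lower. In epithelial cells, *Ptgs1* (3.21, SE 0.06, 1.46e-15), *Slco2a1* (1.84, SE 0.13, 8.62e-09), *Ptges* (1.38, SE 0.25, 0.00016), and *Ptgds* were higher by edgeR, 4 of 10 against 34.5% of all genes. *Ptgis*, *Tbxas1*, *Hpgd*, *Ptger2*, and *Ptger4* were lower there, with 36.6% of all genes called lower. No fold is given for *Ptgds*, since the other classes had 3 UMIs of it in all.

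In stromal cells, *Ptgis* (6.33, SE 0.15, 2.37e-14), *Ptger2* (5.08, SE 0.18, 1.76e-12), and *Ptges* (4.59, SE 0.18, 5.83e-12) were higher by edgeR, 3 of 10 against 36.3% of all genes. *Ptgs1*, *Tbxas1*, *Hpgd*, and *Slco2a1* were lower there, with 30.6% of all genes called lower. In immune cells, *Ptgs2* (4.72, SE 0.42, 7.06e-08), *Ptger4* (4.38, SE 0.33, 9.48e-09), *Tbxas1* (3.61, SE 0.33, 9.12e-08), and *Ptger2* (0.68, SE 0.29, 0.0469) were higher by edgeR, 4 of 10 against 37.7% of all genes. The other 6 were lower, with 38.3% of all genes called lower. *Hpgd* was among them, though its 29.3 CPM in immune cells was above that of stromal (20.3) and epithelial cells (7.19). The call of *Ptger2* in immune cells was lost without any 1 mouse (adjusted p = 0.144, 0.285, and 0.0508 without mice 2, 3, and 4). So were those of *Ptgds* in immune cells (adjusted p = 1, 0.0699, and 1) and, without mouse 2 (0.367) or mouse 4 (0.0823), of *Tbxas1* in stromal cells. In 5 of the calls the class lay below the plain mean CPM of the other 3 classes: *Ptgis* in ECs (27.4 against 43.7 CPM), *Ptgs1* in ECs (74.3 against 76.1), *Slco2a1* in epithelial cells (124 against 404), *Ptges* in epithelial cells (5.95 against 14.0), and *Ptger2* in immune cells (2.89 against 10.9). With only 10 genes, the counts called higher or lower per class lay within a few genes of the shares over all genes. The differences were not tested, and no result about the 10 genes is read from them.

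Of a wider list of 26 other genes of prostanoid synthesis, transport, breakdown, and reception, 20 had enough counts for the class comparisons. In ECs 4 of the 20 were higher and 7 lower (edgeR), against 29.7% and 30.1% of all genes tested. The largest increases there were *Tbxa2r*, the thromboxane receptor (log2 fold change 3.02, SE 0.14, adjusted p = 4.8e-11), *Abcc4*, a transporter that exports prostaglandins (1.63, SE 0.20, 3.69e-06), and *Ptger1*, a further receptor of prostaglandin E (1.19, SE 0.41, 0.0201). In epithelial cells 12 were higher and 4 lower, against 34.5% and 36.6% of all genes, led by the reductases *Ptgr1* (2.22, SE 0.14, adjusted p = 2.18e-09, edgeR) and *Akr1b8* (2.21, SE 0.21, 1.85e-07) and the phospholipase *Pla2g6* (1.37, SE 0.16, 1.59e-06).

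In stromal cells 12 of the 20 were higher and 4 lower, against 36.3% and 30.6% of all genes, led by 3 receptors, *Ptgfr* for prostaglandin F (6.27, SE 0.52, adjusted p = 2.06e-07, edgeR), *Ptgdr* for prostaglandin D (3.92, SE 0.69, 0.000139), and *Ptgir* for prostacyclin (3.61, SE 0.45, 4.17e-06). In immune cells 4 were higher and 11 lower, against 37.7% and 38.3% of all genes, led by *Hpgds*, the hematopoietic prostaglandin D synthase (5.34, SE 0.36, adjusted p = 3e-09, edgeR), *Ptgir* (4.06, SE 0.45, 8.02e-07), and *Abcc4* (1.47, SE 0.19, 5.72e-06). *Ptgir* was thus called higher in both stromal and immune cells.

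The patterns of the 10 genes over 21 named cell types were mostly unlike each other. Unnamed clusters did not enter, so the group with the highest level is missing from these values for *Ptges*, *Hpgd*, and *Ptger4*. The closest pair was *Hpgd* and *Slco2a1* (Pearson's r = 0.694 of log2(CPM + 10), 21 types), and *Ptges* and *Ptger2* followed (r = 0.568). *Ptgs1* and *Ptgs2* had r = 0.162. Among 8899 genes of at least 50 CPM in some type, *Slco2a1* was most like *Rasgef1a* (r = 0.974), *Scarf1* (0.9504), and *Ica1* (0.9496). *Hpgd* was most like *Tie1* (0.891), *Scarb1* (0.886), and *Cdh5* (0.886), and *Ptgis* most like *Eln* (0.940), *Mfap5* (0.932), and *Sod3* (0.928). *Ptgs2* was most like *Tnfaip6* (0.895), *Stfa1* (0.891), and *S100a9* (0.890), and *Ptgs1* most like *Megf9* (0.771), *Car8* (0.709), and *Wipf3* (0.706). *Ptgds* was most like *Slc39a8* (0.964), *Serinc2* (0.949), and *Vnn1* (0.944), and *Ptges* most like *Cdo1* (0.866), *Bmper* (0.852), and *Foxf2* (0.840). *Tbxas1* was most like *Tfec* (0.891), *Ftl1* (0.869), and *Hexa* (0.845). *Ptger2* was most like *Gata5* (0.850), *Kcns3* (0.847), and *Slc25a42* (0.845), and *Ptger4* most like *Fermt3* (0.863), *Stat5a* (0.841), and *Klhl6* (0.824). Platelet-like droplets were the highest named type for *Ptger4*, with all 18 UMIs in 1 droplet. They were also the highest for *Tbxas1*, with 69.2% of UMIs in that droplet. The points are cell types that share the same 3 libraries and differ in depth, so these values are descriptions.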

How the data were processed

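The authors deposited, for each mouse, raw UMI counts per gene and cell barcode, made with Cell Ranger 3.0.2 on mm10 per the labels. The annotation and the use of strand are not given in the sources used here. Droplets with fewer than 200 genes or over 20% mitochondrial UMIs were left out. The 3 libraries were normalized (sctransform 0.4.2) and clustered (Seurat 5.3.0, R 4.3.3) with 3000 variable genes requested, 30 principal components, and resolution 0.8. The 10 genes and the wider list of 26 were left out of the variable genes. The alternative with the 10 genes among the variable genes let both lists back in. A cluster got a type name where the mean log2 fold of the type markers was at least 2.5, with 20 CPM added and at least 3 markers found in 10% of cells. The class of that type, where it had one, also had to score highest and not be negative, and became the class of the cluster. Clusters without a type got a class where the class markers reached 1.0 under the same marker rule. Further rules held back names from dividing clusters, low-depth clusters, and clusters whose leading genes pointed to another class. These cut-offs were set after the clusters were seen, so names are rebuilt and may differ from those of the study. Doublets were scored (scanpy 1.11.5, Python 3.11.15), and the highest-scoring 0.8% per 1000 cells, 156 in all, were marked and kept. The automatic threshold of that caller marked 0.384% to 0.716% of a library.

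The deposited counts were summed per mouse and type or class (at least 10 cells) and tested with edgeR 4.0.16 (quasi-likelihood test, TMM, filter on low counts, Benjamini-Hochberg adjustment over all genes, threshold 0.05). DESeq2 1.42.0, other filters, clusterings, and scalings, a block for the mouse, and leaving out each mouse were alternatives. Sums of the same mouse pair the types and the classes by design. For the class sums, the correlation of their deviations from the class means was -0.0604 to 0.269 over 18 pairs of sums (4459 genes). It was not computed for the sums by type. The 3 mice are separate animals, and their counts differed beyond the noise of sampling (a chi-square of 8.68 to 36.0 for each degree of freedom). On simulated counts with 199 changed genes of 13702, edgeR recovered 98.99% in the comparison of ECs and called 0.126% of unchanged genes. For AT2-like against AT1-like cells it recovered 86.21% of 174 of 10388. The simulated counts gave all types a common mean profile and a fixed spread, with no mouse effect and few changed genes. In the real comparison of ECs, 29.7% of genes were called higher and 30.1% lower, so these rates need not hold there.

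Libraries held 22476491 to 25192427 UMIs. All 10 genes are named, with the 3 largest increases past the threshold of the 26-gene list in each class and the 3 genes most alike in pattern. The genes and lists were chosen with earlier results of these data known. With 3 mice against 3, an exact permutation test of a single gene could not go below 0.1, so none is given.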

Additional observations from a re-analysis of the deposited data

Results flagged for a closer look

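Outside the cells compared, *Tbxas1* stood out. The 1140 droplets left out for over 20% mitochondrial UMIs held 144 *Tbxas1* UMIs, 43, 69, and 32 in mice 2, 3, and 4. That was 40.1 CPM, against 3.61 CPM in the cells kept. In all, 37.7% of the 385 *Tbxas1* UMIs in the libraries were in droplets left out, against 0.735% (*Ptgis*) to 6.77% (*Ptger2*) for the other 9 genes. Macrophage markers in those droplets were at 4906 CPM, against 251 CPM in the cells kept. Their part in the *Tbxas1* level was not tested.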

How the results depend on the processing

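Of 695 log2 fold changes recomputed under an alternative, 628 had the same sign and the same call, 29 lost the call, 21 gained it, and 17 changed sign. They cover only the differences called in the main run and the uncalled ones whose fold change is given above. Calls gained by other uncalled genes of the 10 are not among them. In the class comparisons the count of genes higher in immune cells was 2 with DESeq2 instead of 4, where the adjusted p of *Ptgs2* was NA. In the capillary pair 2 genes were called instead of 1 with stricter filters on cells, no filter on cells, doublets removed, log-normalization, resolution 0.4, resolution 1.2, the 10 genes among the variable genes, or DESeq2. The second gene was *Tbxas1*, with adjusted p of 0.00161 to 0.0489. *Hpgd* turned to -0.00523 there with stricter filters. Between AT2-like and AT1-like cells 2 genes were called instead of 1 with doublets removed or without TMM, 3 without the filter on low counts, and 1 to 2 on leaving out a mouse. *Ptgs1* in that pair, at 0.04, turned to -0.0142 with stricter filters, -0.0340 without filters on cells, -0.0105 with doublets removed, -0.0216 at resolution 0.4, -0.0129 with the 10 genes among the variable genes, -0.0337 with DESeq2, -0.36 without TMM, -0.0843 without the filter on low counts, and ranged from -0.0683 to 0.0517 on leaving out a mouse. Between *Col13a1*-type fibroblasts and myofibroblast-like cells, 1 gene was called instead of 2 with stricter filters, resolution 1.2, DESeq2, or any 1 mouse left out, 4 without filters on cells, at resolution 0.4, or without the filter on low counts, and 6 with log-normalization. *Ptgis* in that pair turned to 1.10 with log-normalization (adjusted p = 1.63e-05), 0.79 at resolution 0.4 (0.00362), and 0.45 at resolution 1.2, and ranged from -0.57 to 0.13 on leaving out a mouse. *Ptges* turned to -0.77 at resolution 0.4 and gained the call, with the sign kept, with no filter on cells, doublets removed, the 10 genes among the variable genes, no filter on low counts, or mouse 2 left out. Between interstitial macrophage-like and neutrophil-like cells 5 genes were called instead of 3 with stricter filters, without TMM, or without the filter on low counts, and 2 on leaving out any 1 mouse. Calls over all genes changed with the settings too (edgeR). Between interstitial macrophage-like and neutrophil-like cells, 1561 genes were higher and 1675 lower of 12350 in the main run. The numbers were 2714 and 2276 of 12037 with stricter filters and 3580 and 898 of 12350 without TMM. Without the filter on low counts they were 1057 and 1988 of 20279. In the capillary pair they were 1103 and 558 of 12350, and 538 and 468 of 12401 at resolution 1.2. The causes were not tested.

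With the mouse as a block, 4 genes were called instead of 3 between interstitial macrophage-like and neutrophil-like cells, the added one being *Ptger4*, and no other call of the 10 genes changed with the pairing. Thinning cells to 1000 or 2000 UMIs lowered the share of cells with a UMI in 20 of 20 cases. Removing UMIs can only lower detection in a cell, so this direction is no check on the results. Levels moved by more than the spread between mice in 5 of 49 cases. The 49 include cases that left out a mouse, which could not count as moved. With so few mice, dropping any of them shifts the mean by less than their SD. All 5 came from leaving out doublets or from taking the mean of the cells' own CPM. The count of 5 of 49 is thus no measure of how stable the levels were. *Ptgs1* in venous-like ECs was at 372 CPM without doublets and 393 CPM as the mean of the cells' own CPM, *Ptgs2* in neutrophil-like cells was at 4305 and 4862 CPM, and *Ptgis* in smooth muscle-like cells was at 183 CPM as the mean of the cells' own CPM. Depth limits *Ptgds* and *Tbxas1* most, with 133 and 240 UMIs.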
